A study of Mus musculus with 2 samples.

Results

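Primary mouse neonatal ventricular cardiomyocytes (mNVCM) were profiled on 2 Affymetrix mouse arrays, and 7 genes were followed: the neutrophil-attracting CXC chemokines *Cxcl1*, *Cxcl2*, *Cxcl3*, *Cxcl5* and *Ppbp*, the related platelet chemokine *Pf4*, and *Cxcr2*, the receptor of the first 5. Every probe set whose annotation named 1 of these genes and no other was taken, which gave 9 of 45037 probe sets and 7 of 18193 genes. Cells came from C57BL6/J hearts of mice aged 2 days and were grown for 48 to 72 h in serum, then kept for 1 h in 0.5% serum. The Dox array held cells given 1 μM doxorubicin (Dox), an anthracycline chemotherapy drug that damages DNA and is toxic to heart muscle, with no pre-treatment. The hAFS-CM + Dox array held cells given hAFS-CM for 3 h and then the same dose of Dox. hAFS-CM is the secretome of human amniotic fluid stem cells, and per the study's methods the donor cells had been cultured in hypoxia and pooled from several donors. The labels give the hours of Dox in 2 ways. The treatment description gives 6 h for both conditions, as do the study's methods, whereas the sample characteristics give 6 h for hAFS-CM + Dox and 21 h for Dox. If the hours did differ, their part and that of the pre-treatment cannot be told apart. Each condition had a single array, so there were no replicates, and the values describe these arrays and carry no test.

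CXC chemokines are small secreted proteins with a single residue between their first pair of conserved cysteines. Those that carry the residues Glu-Leu-Arg (ELR) before these cysteines bind CXCR2, a G protein-coupled receptor of neutrophils, and draw these cells out of the blood. Stromal cells, endothelium and macrophages make CXCL1, CXCL2, CXCL3 and CXCL5 when NF-κB is activated, as in the injured heart, while PPBP is best known as a platelet granule protein whose cleavage product attracts neutrophils. PF4, another platelet protein, lacks the ELR residues and is not a classical ligand of CXCR2.

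All 6 ligand genes lie in one cluster on mouse chromosome 5, with *Cxcl15* among them, and *Cxcr2* lies on chromosome 1. The bases just before the annotated transcription start are shown because they hold the letters that 3 of the genes share. They are RefSeq promoter windows on GRCm38.p6, plus strand, the 120 bases that end at the base before the start. Windows were matched by symbol for 6 of the 7 genes, all but *Cxcl5*. Capitals mark a κB core (GGAATTTCC, the reverse complement of the searched GGAAATTCC) and the TATA-like ATAAAA.
Cxcl1 (chr5:90891125-90891244): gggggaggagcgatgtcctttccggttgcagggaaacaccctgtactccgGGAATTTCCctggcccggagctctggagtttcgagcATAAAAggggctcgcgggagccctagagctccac
Cxcl2 (chr5:90903779-90903898): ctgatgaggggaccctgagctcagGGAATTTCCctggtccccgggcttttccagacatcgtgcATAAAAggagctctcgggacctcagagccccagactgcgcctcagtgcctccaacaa
Cxcl3 (chr5:90785981-90786100): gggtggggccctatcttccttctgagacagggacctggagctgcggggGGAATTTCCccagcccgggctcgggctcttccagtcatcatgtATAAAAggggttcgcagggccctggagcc
Ppbp (chr5:90768398-90768517): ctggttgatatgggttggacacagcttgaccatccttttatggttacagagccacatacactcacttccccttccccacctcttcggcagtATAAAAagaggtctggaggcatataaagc
Pf4 (chr5:90772315-90772434): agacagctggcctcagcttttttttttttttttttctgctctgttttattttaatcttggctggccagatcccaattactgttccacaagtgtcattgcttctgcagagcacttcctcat

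The κB core, a binding motif of NF-κB dimers, was found before the start of *Cxcl1* (bases 70 to 62), *Cxcl2* (96 to 88) and *Cxcl3* (72 to 64). Searched on both strands, it was present in 0.317% of all 32851 windows of 250 bases before to 50 bases after a start. The longest run of letters common to the upstream 250 bases of these 3 genes was GGGAATTTCCC, 11 bases long, and it contains the core. The longer κB consensus, which overlaps the core, was found in the same 3 genes and in 8.46% of all windows. TATAAA was found in *Cxcl3* and *Ppbp* (13.6% of windows), the AP-1 motif TGANTCA in *Ppbp* (7.81%) and the C/EBP-like TTGCNNAA in *Pf4* (10.8%). ATAAAA, which overlaps TATAAA and was added after the sequences were seen, was found in the windows of all ligand genes searched (18.5% of all windows). In *Pf4* it was on the minus strand before the start (bases 77 to 72) and on the plus strand after the start. The capitals mark neither of these, nor a minus-strand match in *Ppbp* (bases 85 to 80). None of these letters was found in the window of *Cxcr2*. Motif matches are a description of the letters and do not show that a factor was bound.

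The 5 ELR ligands among these 7 genes were higher on the hAFS-CM + Dox array, whereas *Pf4* and *Cxcr2* were not. Taking for each gene its probe set of highest mean, 4 of the 7 genes were higher by 2-fold or more, the threshold of the study, against 0.506% of all genes, and none was lower by 2-fold, against 0.214% of all genes. At the probe set level, 5 of 9 were higher by 2-fold or more, against 0.355% of all probe sets, and 0 were lower to that extent, against 0.222%. The 5 were 1 each of *Cxcl2*, *Cxcl3* and *Cxcl5* and 2 of *Cxcl1*. The median log2 ratio, hAFS-CM + Dox over Dox, was 1.26 over the 7 genes and 0.01 over all genes. A threshold of 1.5-fold took in *Ppbp* as well, with 5 of the 7 genes against 2.32% of all genes, and at 3-fold 3 remained, *Cxcl2*, *Cxcl3* and *Cxcl5*, against 0.132%. The study had listed *Cxcl1*, *Cxcl2*, *Cxcl3* and *Cxcl5* from these same arrays at 2-fold, so these counts are not independent evidence of their direction.

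**Figure D1:**
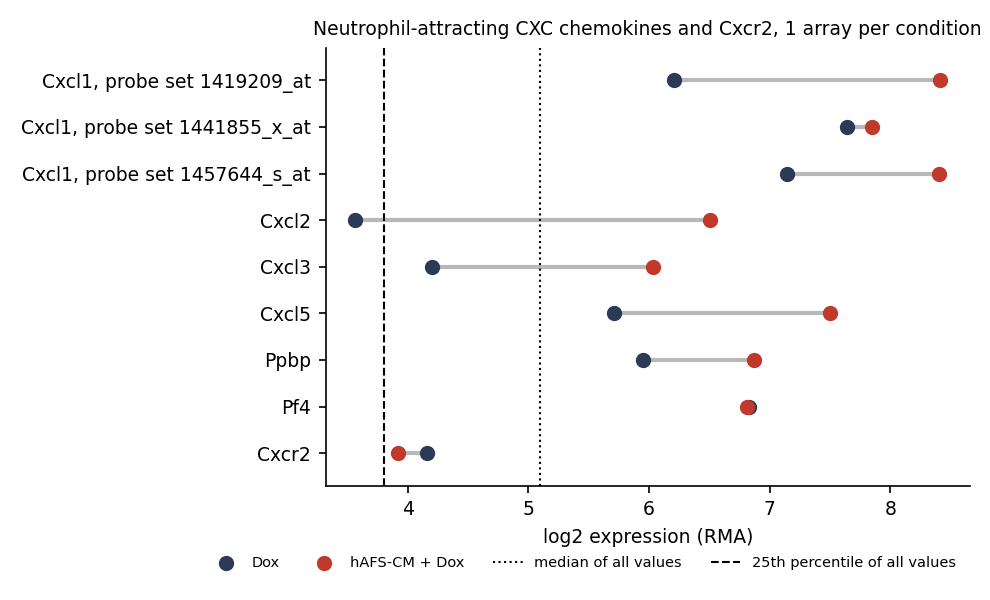
Log2 expression (RMA, x axis) with Dox alone (dark points) and with hAFS-CM + Dox (red points) at each of the 9 probe sets of the 7 genes, 1 array per condition. The red point lies to the right for all 7 probe sets of the ELR ligands, the points of *Pf4* nearly coincide at 6.83 and 6.81, and both points of *Cxcr2* lie near the 25th percentile of all values, 3.80 (dashed line); positions of different probe sets are not comparable.

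*Cxcl2*, also known as MIP-2, codes for a potent attractant of neutrophils made by macrophages and stromal cells. Its log2 value was 6.51 on the hAFS-CM + Dox array and 3.57 on the Dox array, a log2 ratio of 2.94 or 7.68-fold. It ranked 4 among the log2 ratios of all 18193 genes. On the Dox array the value was under 3.80, the 25th percentile over both arrays, where signal and background were not separated. With both arrays floored at that percentile the log2 ratio was 2.70, so the size of the change rests on a dim value while its direction was the same.

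*Cxcl3* codes for a close relative of CXCL2. Its log2 value was 6.03 with hAFS-CM + Dox and 4.20 with Dox, a log2 ratio of 1.84 (3.57-fold, rank 15). The Dox value was below the median of all values, 5.10, and above the 25th percentile, close to that of *Cxcr2* on the same array (4.16). The size of this change thus also rests on a dim value. *Cxcl5*, also named LIX, codes for a chemokine that epithelial and stromal cells release. It had log2 values of 7.50 and 5.71, a log2 ratio of 1.79 (3.45-fold, rank 17). Both of its values lay above the median of all values, so that this change rests on no dim value. *Cxcl3* and *Cxcl5* differed by 0.05 in log2 ratio, less than 0.21, the SD of log2 ratios between probe sets of the same gene over 5299 genes. It was taken over probe sets with a value of at least the median on one array or both. That SD carries no variation between cultures.

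*Cxcl1*, also named KC, codes for the chemokine that the study followed further by qRT-PCR and with a blocking antibody. It was the only gene of the group with several probe sets, and they gave different sizes of change. Probe set 1419209_at had log2 values of 8.42 with hAFS-CM + Dox and 6.21 with Dox, a log2 ratio of 2.21 (4.63-fold). Probe set 1457644_s_at, which had the highest mean and stands for the gene, had 8.40 and 7.14, a log2 ratio of 1.26 (2.39-fold, rank 48). Probe set 1441855_x_at had 7.85 and 7.64, a log2 ratio of 0.21 (1.15-fold), about as large as the SD between probe sets. The mean over the 3 probe sets was 1.23 with an SD of 1.00, so all 3 were higher with hAFS-CM + Dox but the size was not settled. The suffixes s and x mark the less specific designs, in which probes can be shared by several transcripts; what this contributed to the difference was not tested.

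*Ppbp* had log2 values of 6.87 with hAFS-CM + Dox and 5.95 with Dox, a log2 ratio of 0.92 or 1.90-fold. It ranked 111 among all genes and fell short of the 2-fold threshold, although its log2 ratio was over 4 times the SD between probe sets (4.32). *Pf4* had 6.81 and 6.83, a log2 ratio of -0.02. *Ppbp* and *Pf4* are neighbours and both are known from platelets, yet their log2 ratios differed by 0.94. *Cxcr2* had 3.92 and 4.16, a log2 ratio of -0.24, slightly larger in size than the SD between probe sets. Both values of *Cxcr2* lay below the median of all values and close to the 25th percentile, so the arrays gave no clear signal of the receptor's transcript in either condition.

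By log2 ratio the order was *Cxcl2*, *Cxcl3*, *Cxcl5*, *Cxcl1*, *Ppbp*, *Pf4*, *Cxcr2*. Apart from *Cxcl3* and *Cxcl5* (0.05) and from *Pf4* and *Cxcr2* (0.22), each gene differed from the next in this order by more than that SD. The largest gap was 1.11, between *Cxcl2* and *Cxcl3*. It rests on the dim Dox value of *Cxcl2*, and with the floor it was 0.87. The gap between *Pf4* and *Cxcr2* was about as large as the SD, which was 0.22 over 9010 genes without the limit on signal. The SD is that of a single log2 ratio and not of a gap between 2. The place of *Cxcl1* rests on its probe set, since 2.21 would put it second and 0.21 would put it after *Ppbp*. With a pair of arrays, likeness of pattern is only closeness of log2 ratio. Among 12238 genes with a value of at least the median on one array or both, *Cxcl2* stood between *Serpinb1a* (3.51) and *Olr1* (2.70). *Cxcl3* and *Cxcl5* were ranked around *Irgm2* (1.83), with *Gda* (1.87) next above and *Thbs4* (1.75) next below. *Cxcl1* stood between *Nrip3* (1.28) and *Meox1* (1.26).

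**Figure D2:**
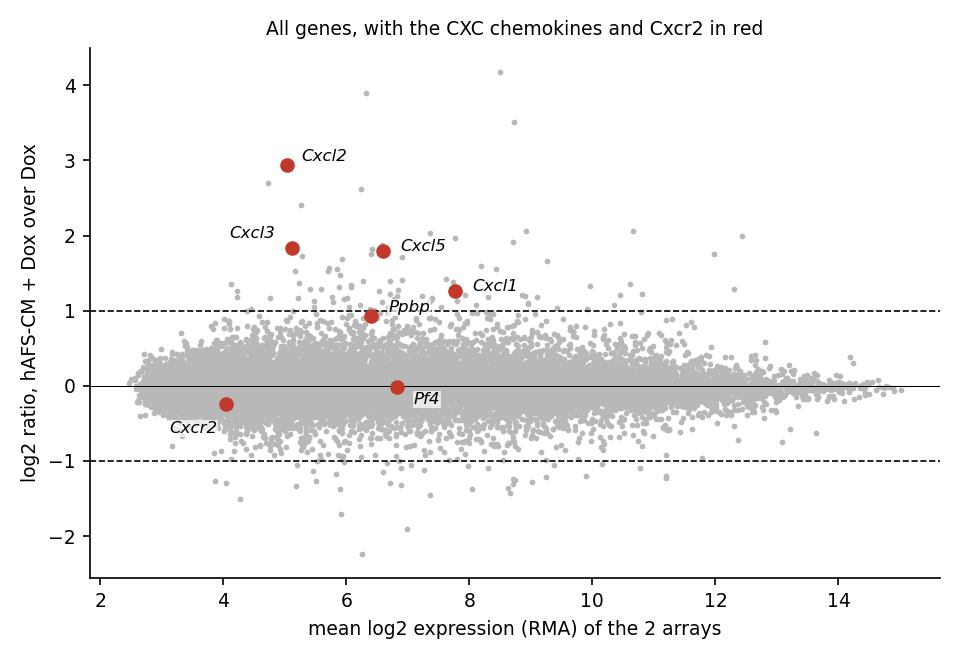
Log2 ratio of hAFS-CM + Dox over Dox (y axis) against the mean log2 expression of the 2 arrays (x axis), each point a gene at its probe set with the highest mean, dashed lines at 2-fold. *Cxcl2*, *Cxcl3*, *Cxcl5* and *Cxcl1* lie above the upper line, *Ppbp* just under it at 0.92, and *Pf4* and *Cxcr2* lie within the cloud of all genes.

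Along chromosome 5 the measured genes run in the order *Cxcl5*, *Ppbp*, *Pf4*, *Cxcl3*, *Cxcl15*, *Cxcl1* and *Cxcl2*. The higher genes were therefore not one unbroken block: *Pf4* (-0.02) and *Cxcl15* (-0.03) lay among them. *Cxcl15* codes for lungkine, an ELR chemokine of lung epithelium, and its values were low on both arrays (4.17 and 4.20; 0.11 in log2 ratio at its other probe set). On the *Cxcl5* side the next gene, *Rassf6*, had a log2 ratio of -0.35. On the *Cxcl2* side *Mthfd2l* had -0.26, *Epgn* 0.10 and *Ereg*, which codes for the growth factor epiregulin, 0.84. *Areg*, next after *Ereg*, had no probe set of its own symbol and was not analysed here, but the study lists it among its up-regulated genes. These flanking genes were added after the values of the chemokines were seen.

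**Figure D3:**
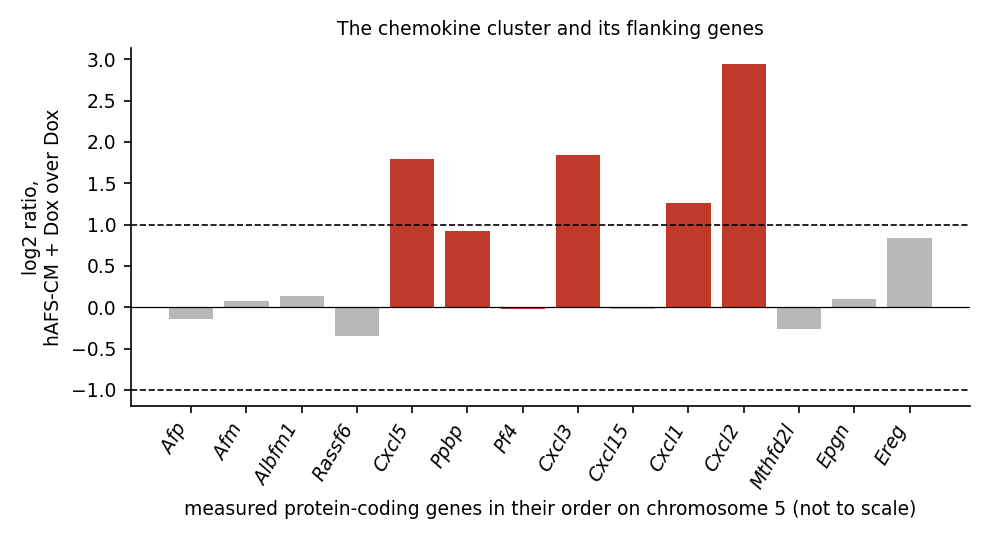
Log2 ratio of hAFS-CM + Dox over Dox (y axis) of the measured protein-coding genes of the chemokine cluster (red bars) and their flanking genes (grey bars), in their order on chromosome 5, not to scale, 1 value per gene. The dashed lines mark 2-fold; *Cxcl5*, *Cxcl3*, *Cxcl1* and *Cxcl2* pass the upper line, and *Pf4* and *Cxcl15* between them lie near 0.

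The 3 genes with the κB core all passed 2-fold, but so did *Cxcl5*, for which no window was searched. Of all genes higher by 2-fold or more, 66 had a window, and 6 of these (9.09%) held the core, against 62 of 14452 measured genes (0.429%). The other 3 of the 6 were *Acod1*, *Ier3* and *Tfpi2*, named after their values were seen. A higher share among the 66 was not particular to the core. The κB consensus was in 22.7% of them, against 11.7% of the measured genes, and the AP-1 motif in 21.2% against 7.54%. TATAAA was in 21.2% against 11.5%, the C/EBP-like motif in 16.7% against 10.8%, and ATAAAA in 25.8% against 14.6%. *Cxcl1*, *Cxcl2* and *Cxcl3* are related copies, so their windows are not independent of each other, and no test was made of these shares.

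Among 92 measured genes in 6 lists around this pathway, 1 passed the 2-fold threshold upward, against 0.506% of all genes, and none downward, against 0.214%. The median log2 ratio of the 92 was 0.13, against 0.01 over all genes. At 2-fold the list count is thus close to what all genes gave. At 1.5-fold the lists held a larger share, 11 of the 92 in either direction, against 422 higher and 277 lower of all 18193 genes. The decoy receptor gene *Ackr1*, whose product binds these chemokines without signalling, had log2 values of 5.96 with hAFS-CM + Dox and 5.33 with Dox, a log2 ratio of 0.63. *Cxcr1* was not analysed here. Of 10 other CXC, CX3C and XC chemokines, none passed 2-fold (median log2 ratio 0.15). *Cxcl16* had 0.56, *Cxcl12*, which codes for the ligand of CXCR4, 0.54, *Cxcl10*, an interferon-induced chemokine, 0.35 and *Cxcl17* 0.16.

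Genes that control transcription and mRNA decay of these chemokines had a median log2 ratio of 0.25. Of 26 measured, 15 were above and 2 below the range of plus or minus that SD of 0.21. Of all genes, 17.5% were above this range and 15.5% below it. The gene past 2-fold was *Bcl3*, a nuclear IκB family cofactor of NF-κB, with 6.78 against 5.09 (log2 ratio 1.69). *Nfkbiz*, another nuclear cofactor of that family, had 0.98 (as low as 0.16 among its 3 probe sets). *Il17ra*, the receptor subunit through which IL-17 induces these chemokines, had 0.82 at one probe set and 0.83 at the other. The transcription factor gene *Cebpd* had 0.81, and -0.10 at its other probe set. *Zfp36* codes for tristetraprolin, which destabilises chemokine mRNAs, and had 0.64.

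Components of CXCR2 signalling differed in both directions. Of 20 measured, 4 were above and 6 below the same range, where all genes gave 17.5% and 15.5%, and none passed 2-fold at its gene-level value (median 0.05). *Dock2*, a guanine exchange factor of leukocyte migration, had 0.43 (as low as -0.15 among 3 probe sets). The receptor kinase gene *Grk6* had 0.31 (as low as 0.09 among 3 probe sets). *Gnai2*, a G protein subunit, had -0.35 (0.07 at its other probe set) and *Gng2* -0.35 (down to -1.11 among 4 probe sets). Of 19 proteases and heparan sulfate genes, whose products cut chemokines or hold them on the cell surface, 10 were above and 1 below it, beside the same shares of all genes, and none passed 2-fold (median 0.23). *Mmp9* had 0.77 (0.09 at its other probe set), *Mmp12* 0.65, the syndecan gene *Sdc1* 0.37 and *Elane*, neutrophil elastase, 0.37.

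Of 15 other genes for signals that act on neutrophils, none passed 2-fold (median 0.04). *Il1b* had 0.94, *C5ar1*, the receptor of complement C5a, 0.33, the formyl peptide receptor gene *Fpr2* 0.31, and *Lta4h*, an enzyme of leukotriene B4 synthesis, -0.63 (as high as -0.04 among 3 probe sets). *Csf3*, the growth factor of neutrophils, had 0.15. The medians of the 6 lists lay between 0.04 and 0.30, against 1.26 for the chemokine group, and no test was made of them.

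**Figure D4:**
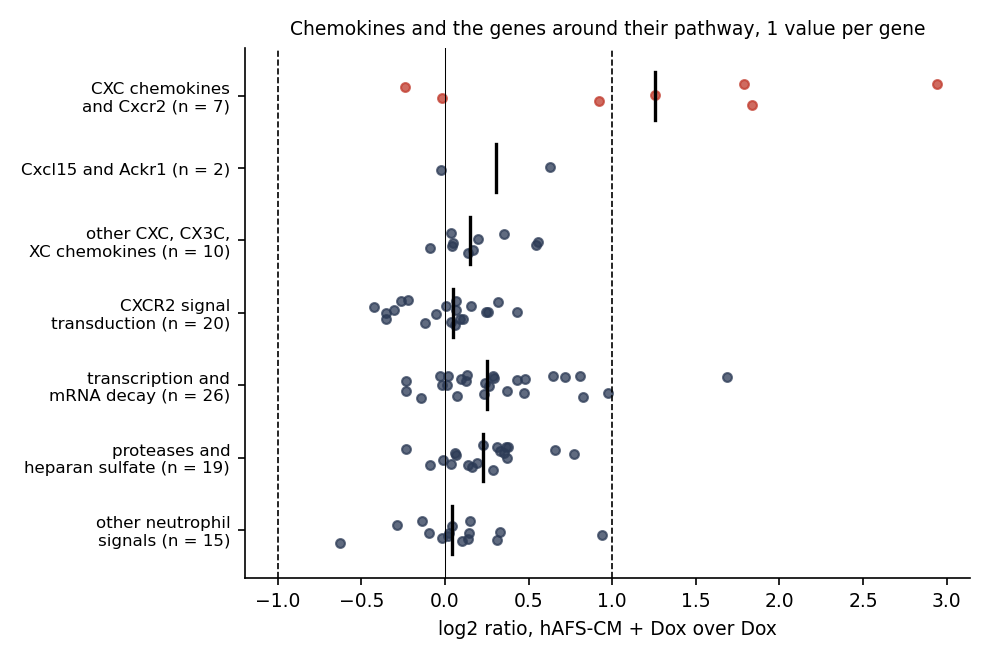
Log2 ratio of hAFS-CM + Dox over Dox (x axis) of each gene (points) in the chemokine group (red) and in 6 lists of genes around its pathway (dark), with the median of each as a black line and 2-fold as dashed lines; n is the number of measured genes. The medians are 1.26 for the chemokine group and between 0.04 and 0.30 for the lists, and *Bcl3* (1.69) is the 1 listed gene past 2-fold.

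The cultures carried cardiomyocyte transcripts at high values, such as *Actc1* (14.86 and 14.93), and 13 of 13 measured cardiomyocyte markers lay above the median of all values. Their summed level was 17.86 with hAFS-CM + Dox and 17.96 with Dox on the log2 scale, and 1 of the 13 was above 0 in log2 ratio. In this and the other summed levels the brightest probe sets weigh most, so sums of different lists are not comparable and do not measure amounts of cells. Below minus the SD between probe sets were 3 of the 13, against 15.5% of all genes. The lowest of them was *Pln*, the calcium pump regulator phospholamban, with -0.57 (as low as -0.87 among 3 probe sets). On these bulk arrays, fewer cells of a type and less RNA per cell cannot be told apart. Of 10 measured neutrophil markers, none passed 2-fold, 4 were above 0 in log2 ratio, and their summed level was 9.15 with hAFS-CM + Dox and 9.24 with Dox on the log2 scale. *S100a8* and *S100a9*, the abundant calprotectin subunits, had log2 ratios of 0.18 and -0.15. *Ngp* had -0.70 and *Itgam* -0.58, whereas *Elane* had 0.37 and *Ltf* 0.24. Of 9 platelet and megakaryocyte markers, none passed 2-fold (summed level 9.05 and 8.87) and 5 were above 0. Above the SD between probe sets were 3 of them (17.5% of all genes), with none below minus it (15.5%). *Itgb3*, an integrin of other cells too, had 0.90 (0.44 at its other probe set), and *Itga2b*, the defining one, 0.09. *Clec1b* had 0.45, *Gp6* 0.28 and *Gp1bb* 0.16 (0.49 at its other probe set). Below 0 were *Gp9* (-0.17), *Tubb1* (-0.13), *Treml1* (-0.05) and *Gp5* (-0.03). Of 16 macrophage markers, none passed 2-fold, but 12 were above 0 and 5 were above the SD between probe sets, with none below minus it. Of all genes, 17.5% were above the SD and 15.5% below minus it. *Cd14* had 0.80, *Mrc1* 0.45, *Adgre1* 0.33 and *Csf1r* 0.33 (as low as -0.14 among 3 probe sets). Below 0 were *C1qc* (-0.20), *C1qa* (-0.17), *Folr2* (-0.12) and *Lyz2* (-0.11). The summed level of the 16 was 12.48 and 12.49, and *Lyz2*, the brightest of them (11.80 and 11.91), makes up much of it. *Cd163* and *Timd4* were under the 25th percentile on both arrays. The part of macrophage RNA in the chemokine values was not tested. Endothelial markers had a summed level of 11.32 and 11.25. Of 9 fibroblast markers (13.98 and 14.02), 1 was lower by 2-fold (0.214% of all genes), *Tcf21*, with -1.03 (0.18 at its other probe set). *Ddr2* had -0.75 (-0.05 at its other probe set) and *Postn* -0.43. By contrast, *Pdgfra* had 0.79 (as low as -0.05 among 3 probe sets) and *Dcn* 0.41 (0.12 at its other probe set). Which cells made the chemokine transcripts was not tested.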

How the data were processed

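Total RNA of mNVCM was hybridised to Affymetrix GeneChip mouse arrays, 1 for Dox and 1 for hAFS-CM + Dox. Per probe set, the authors derived a log2 value by RMA with quantile normalization; these deposited log2 values were not transformed further. RMA is also named in the submitters' processing notes; its software version was not given in the sources used here. The log2 scale was inferred from the range (2.37 to 15.05). Quantile normalization gives both arrays nearly the same distribution, so a shift shared by most genes would be lost.

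Symbols came from the platform annotation, updated by Entrez ID with RefSeq genes (GRCm38.p6; 34754 of 34958 probe sets with 1 gene). The 64 control probe sets were left out. Each gene was represented by its probe set of highest mean. No test was made with 1 array per condition, and precision is limited by the number of arrays. Genes named are the 7 members, in each pathway list those past 2-fold and the 4 with the largest log2 ratios among genes at or above the median signal on the higher array, and the genes next to members in rank; *Zfp36*, *Csf3* and the markers named were added after the values were seen. Members and lists were chosen with earlier results of these data known. Listed genes without a probe set of their own symbol were not analysed here. The counting step was tested on simulated data. Values were computed in Python 3.11.15 with pandas 2.3.3 and numpy 2.4.6, lowess with statsmodels 0.14.6 and plots with matplotlib 3.10.9.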

Additional observations from a re-analysis of the deposited data

How the results depend on the processing

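The alternatives were other fold thresholds, filters on low signal, centring, lowess correction on mean expression (span 0.3), leaving out the less specific probe sets, other rules for a gene's probe set, and a floor at the 25th percentile. The number of chemokine-group genes higher by 2-fold or more was 4, and it was 3 or 4 under the alternatives that kept that threshold; it was 5 at 1.5-fold and 3 at 3-fold. It was 3 with the probe set of smallest change, which ended the call of *Cxcl1* (log2 ratio 0.21), and 3 with both arrays required at or above the 25th percentile, which left out *Cxcl2*. Of 49 recomputed log2 ratios of the 7 genes, 45 moved by less than that between-probe-set SD, and no sign changed. The 4 that moved were *Cxcl1* at other probe sets (0.21 and 2.21, the latter also without the less specific designs) and *Cxcl2* with the floor (2.70). Every gene but *Cxcl1* had only 1 probe set, so the rules on probe sets could not change its value. The floor could change only *Cxcl2*. Most of the 45 were thus fixed in advance and are no measure of robustness. Of the 92 listed pathway genes, 2 passed 2-fold with the probe set of largest change (*Bcl3* and *Gng2*) and 11 passed 1.5-fold. At 1.5-fold, 422 of all 18193 genes were higher and 277 lower, a smaller share than in the lists. The share of all genes under the rule of largest change was not computed. Low signal limits *Cxcl2* and *Cxcl3* on the Dox array and *Cxcr2* on both.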
